A study of Mus musculus with 4 samples.

Results

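A set of 10 genes of the somites and their derivatives was followed in the accessible chromatin of early mouse forelimb buds: Meox1, Meox2, Tcf15, Uncx, Pax1, Pax9, Nkx3-2, Cdx2, Zic1 and Zic4. They were chosen by name as transcription factor genes of the somite, the sclerotome and the trunk axis, and this rule used no measured value. Earlier results of these data were, however, known when the genes were chosen. The annotation held all 10 among its 22380 protein-coding genes. A region belonged to the gene whose transcription start was nearest its centre, or to any of the genes with a start within 2.5 kb of the centre. This gave 70 of the 42613 accessible regions at E9.5 and 85 of the 46765 at E10.5. Regions can be closer to a gene than to any other without controlling it.

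Accessibility had been profiled by ATAC-seq, in which a transposase inserts adapters into open DNA, in wild-type NMRI embryos at E9.5 and E10.5. At either stage, 2 embryos were processed separately, and 1 embryo gave 1 replicate, namely both of its forelimb buds. The E9.5 buds, for which the protocol also names a slightly later stage, were dissected along with proximal trunk tissue. The study's methods do not say whether this tissue included somites or neural tube. No trunk is mentioned for E10.5, whose tissue label adds hindlimb buds although the source label and the protocol mention forelimbs alone. The labels name no treatment and no engineered allele. Stage and trunk therefore cannot be told apart in any comparison here, and neither can a smaller number of cells with an open region and a lower accessibility per cell.

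Somites are blocks of paraxial mesoderm that bud off next to the neural tube. Their ventral part becomes the sclerotome, from which vertebrae and ribs form, and their dorsal part becomes the dermomyotome, the source of skeletal muscle including that of the limb. Of the genes followed here, Tcf15 encodes a basic helix-loop-helix factor required for epithelial somites, and Meox1 and Meox2 encode homeodomain factors of the early somite. Uncx marks the posterior part of each sclerotome. Pax1, Pax9 and Nkx3-2 act in sclerotome and cartilage development. Cdx2 patterns the tail bud and posterior trunk, and the zinc finger genes Zic1 and Zic4 lie next to each other and are active in the dorsal neural tube and dorsal somite.

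Each stage was represented by a single list in which the regions of both embryos had been combined upstream. Each region carried a score, which is 10 times the negative log10 of its best MACS p-value, and a higher score therefore reflects a stronger peak but also deeper sequencing. Sequencing depth is unknown. Scores are accordingly also given as a percentile within their own list, where 100 would be the strongest region. No replicate error exists for any difference between the stages, no test was possible, and the 95% Wilson intervals of shares cover counting error only and treat regions as independent. A region was called E9.5-only or E10.5-only, jointly stage-specific, if no region of the other list overlapped it by at least 1 bp, and shared otherwise. Regions centred within 2.5 kb of a protein-coding start were promoter-proximal and all others distal. All 13 limb mesenchyme genes examined had a promoter-proximal region in both lists, although that of Tbx5, the forelimb gene, was weak with scores of 89.9 and 74.2.

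All 10 somite and sclerotome genes had a promoter-proximal region in both lists, where 65.1% (E9.5) and 62.5% (E10.5) of all protein-coding genes had one. The genes differed in their distal regions. Uncx and Meox1 had more regions found only at E9.5, whereas Pax1, Zic4 and Meox2 had more found only at E10.5, most of them more than 100 kb from the gene. The Meox2 difference was 0 when only the higher-scoring 50% of regions was used, and so was the Meox1 difference when these were set against the whole other list. Within 100 kb of the start the Zic4 order was reversed, with 4 E9.5-only regions and 1 E10.5-only region. With genes of any type allowed as the nearest gene, Pax1 and Meox1 kept no stage-specific region, whereas Uncx kept all of them. Summed over the 10 genes, 24 of 70 E9.5 regions were E9.5-only (34.3%, 95% interval 24.2 to 46.0), against 29.9% of the whole E9.5 list. At E10.5, 34 of 85 regions were E10.5-only (40.0%, 30.2 to 50.6), against 35.0% of the whole list. Both background shares lay inside the intervals of the 10 genes.

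**Figure D1:**
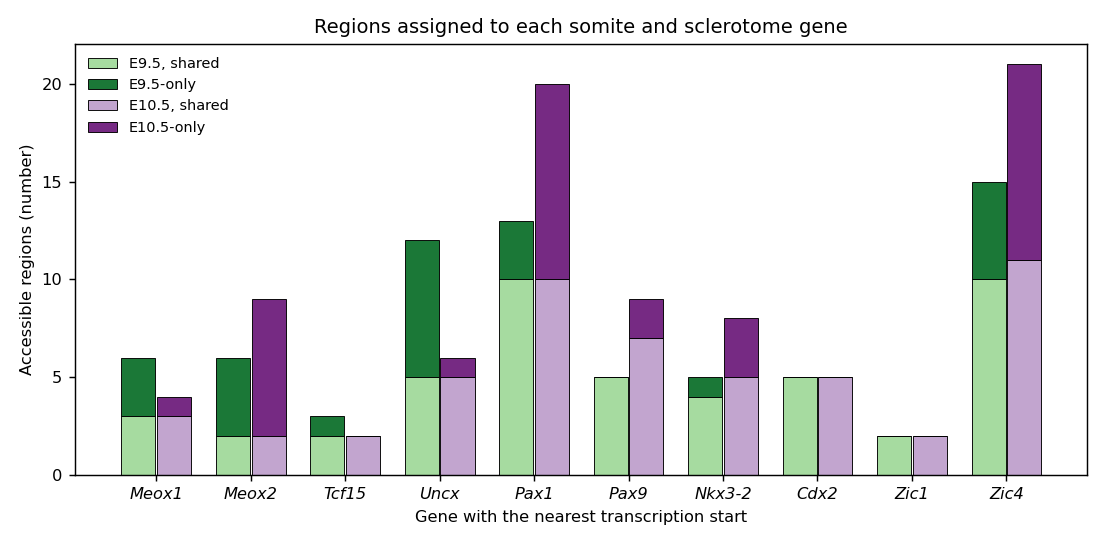
Number of accessible regions (vertical axis) assigned to each of the 10 genes at E9.5 and E10.5, split into shared and stage-specific regions. Uncx has 7 E9.5-only regions and 1 E10.5-only region, whereas Pax1 has 3 and 10, and a region between Zic1 and Zic4 may count for both genes.

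The regions whose sequence is shown first are the strongest distal ones found at 1 stage only, since these carry the difference between the stages. All sequences are the mm9 plus strand, 100 bp on either side of the central base, and none lies in an untranslated region of the annotation. Capitals mark matches to any of 8 short motifs described further on, and a sequence without capitals held none of them. At E9.5 these were an intergenic region upstream of Uncx, an intergenic region far upstream of Meox2 and an intronic region of Uncx.
Uncx, 7.55 kb upstream, E9.5-only, chr5:140011802-140012002: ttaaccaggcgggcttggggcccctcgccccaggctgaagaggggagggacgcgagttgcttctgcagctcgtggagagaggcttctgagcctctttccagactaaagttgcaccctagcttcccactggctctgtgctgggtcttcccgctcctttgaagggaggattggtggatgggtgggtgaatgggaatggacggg
Meox2, 190.38 kb upstream, E9.5-only, chr12:37644647-37644847: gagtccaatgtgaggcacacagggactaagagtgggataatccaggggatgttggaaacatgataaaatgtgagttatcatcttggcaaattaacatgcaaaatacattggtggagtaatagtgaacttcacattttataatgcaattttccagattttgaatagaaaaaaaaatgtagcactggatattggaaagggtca
Uncx, 14.7 kb downstream, E9.5-only, chr5:140034550-140034750: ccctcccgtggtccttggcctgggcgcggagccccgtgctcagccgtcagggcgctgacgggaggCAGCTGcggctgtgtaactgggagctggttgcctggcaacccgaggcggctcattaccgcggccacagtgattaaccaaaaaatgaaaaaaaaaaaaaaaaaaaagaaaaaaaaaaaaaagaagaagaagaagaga

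At E10.5 the strongest were a pair of intergenic regions downstream of Pax1 and an intergenic region far upstream of Meox2. Their GC contents were 39.8, 35.8 and 40.3% in the order shown, against 60.7, 35.8 and 52.7% for the E9.5-only sequences above, and the capitals in the first Pax1 sequence mark the reverse complement of the Zic motif.
Pax1, 61.7 kb downstream, E10.5-only, chr2:147255577-147255777: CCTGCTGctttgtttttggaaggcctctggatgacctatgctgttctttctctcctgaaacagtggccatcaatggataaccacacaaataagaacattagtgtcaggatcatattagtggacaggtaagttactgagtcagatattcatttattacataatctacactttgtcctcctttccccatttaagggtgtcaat
Meox2, 317 kb upstream, E10.5-only, chr12:37517784-37517984: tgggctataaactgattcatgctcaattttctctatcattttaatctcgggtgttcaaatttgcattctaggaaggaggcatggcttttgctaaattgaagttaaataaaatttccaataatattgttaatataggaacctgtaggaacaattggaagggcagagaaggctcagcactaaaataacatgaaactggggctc
Pax1, 147 kb downstream, E10.5-only, chr2:147340781-147340981: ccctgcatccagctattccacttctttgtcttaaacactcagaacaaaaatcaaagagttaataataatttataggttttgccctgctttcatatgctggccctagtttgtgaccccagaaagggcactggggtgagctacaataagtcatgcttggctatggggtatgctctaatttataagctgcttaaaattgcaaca

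Tcf15 (chr2:151969297-151974833, plus strand) had few regions. Of 3 at E9.5, a single intergenic region 9.91 kb downstream of the start was E9.5-only, with a score of 138. Both E10.5 regions were shared. These 2 promoter-proximal regions behaved differently in the lists. The region 1.39 kb upstream of the start scored 696 at E9.5 and 854 at E10.5, and the region over the start scored 809 and 324. On the percentile scale the upstream region lay at 72.8 and 83.1, and the region over the start at 75.7 and 59.7.

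Meox1 (chr11:101738824-101755688, minus strand) had 6 regions at E9.5, of which 3 were E9.5-only, and 4 at E10.5, of which 1 was E10.5-only. The E9.5-only regions scored 198 in intergenic sequence 23.9 kb downstream of the start, 160 in an intron at 12.5 kb and 125 in an intron at 4.45 kb. When noncoding genes were also allowed as the nearest gene, all 3 were nearest Gm11551. The E10.5-only region, 25.5 kb upstream, scored only 65.1, at percentile 0.197 of its list. The promoter-proximal region scored 175 and 108 (percentiles 35.3 and 12.1.) The strongest Meox1 region, singled out after its values were seen, lay 2.63 kb upstream, just outside the promoter limit. Its score was 1303 at E9.5, and the E10.5 region overlapping it had a score of 151. In percentiles this was 85.1 against 29.9, which was the largest drop in rank among the shared E9.5 regions of the 10 genes, each paired with its strongest E10.5 partner. Its sequence held a pair of E-boxes (CAGCTG) and a pair of TGACAG motifs, in capitals.
Meox1, 2.63 kb upstream, shared, chr11:101758215-101758415: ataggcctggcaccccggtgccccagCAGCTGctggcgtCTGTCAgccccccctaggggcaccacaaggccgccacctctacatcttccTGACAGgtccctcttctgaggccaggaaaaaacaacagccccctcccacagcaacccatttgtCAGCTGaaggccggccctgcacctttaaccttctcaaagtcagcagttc

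Meox2 (chr12:37835127-37908372, plus strand) differed from Meox1. It had 6 regions at E9.5 and 9 at E10.5, of which 4 and 7 were stage-specific. Its promoter-proximal region was among the stronger of the 10 genes at both stages, with scores of 1239 and 1382 and percentiles of 84.2 and 91.6. The E9.5-only regions lay upstream of the gene in intergenic sequence. They scored 412 at 190.38 kb, 213 at 175 kb, 121 at 192 kb and 79.1 at 35.8 kb. The strongest E10.5-only region lay 317 kb upstream with a score of 1084, and a weaker one with a score of 158 lay between it and a shared region 314 kb upstream. The shared region scored 541 at E9.5 and 1990 at E10.5, or percentiles 67.9 and 96.0. This neighbourhood therefore had 1 region at the earlier stage and 3 at the later one, and the gap from the strongest E10.5-only region to the nearest E9.5 region was 1.34 kb. The remaining E10.5-only regions scored between 117 and 212, and 2 of them lay in Meox2 introns. A noncoding gene, AC122337.1, was nearer than Meox2 to 3 of the 4 E9.5-only and 4 of the 7 E10.5-only regions.

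Uncx (chr5:140019448-140079180, plus strand) had the largest excess of E9.5-only regions of the 10 genes. Its region count was 12 in the earlier list and 6 in the later one. The strongest E9.5-only region, 7.55 kb upstream, scored 653 and lay at percentile 71.5, and no E10.5 region lay within 6.72 kb of it. A further E9.5-only region 2.97 kb upstream scored 235. Within Uncx introns, E9.5-only regions at 11.0 kb, 14.7 kb and 41.5 kb scored 113, 352 and 274. Past the annotated end of the gene, the regions at 59.7 kb and 67.1 kb were weak, with scores of 81.1 and 105. All 7 thus lay within 100 kb of the start. A single E10.5-only region, 21.3 kb upstream, scored 157.

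Of the 5 shared Uncx regions, 4 had a lower percentile in the E10.5 list than in the E9.5 list. The promoter-proximal region scored 196 and 115 (percentiles 40.1 and 15.8.) The intronic regions at 28.7 kb and 55.4 kb went from 182 to 105 and from 245 to 125, which placed them 26.7 and 28.0 percentile points lower. The region 75.7 kb downstream had the higher percentile at E10.5, 68.1 against 62.3. Leaving Uncx out took the E9.5-only share of the remaining genes to 29.3%.

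**Figure D2:**
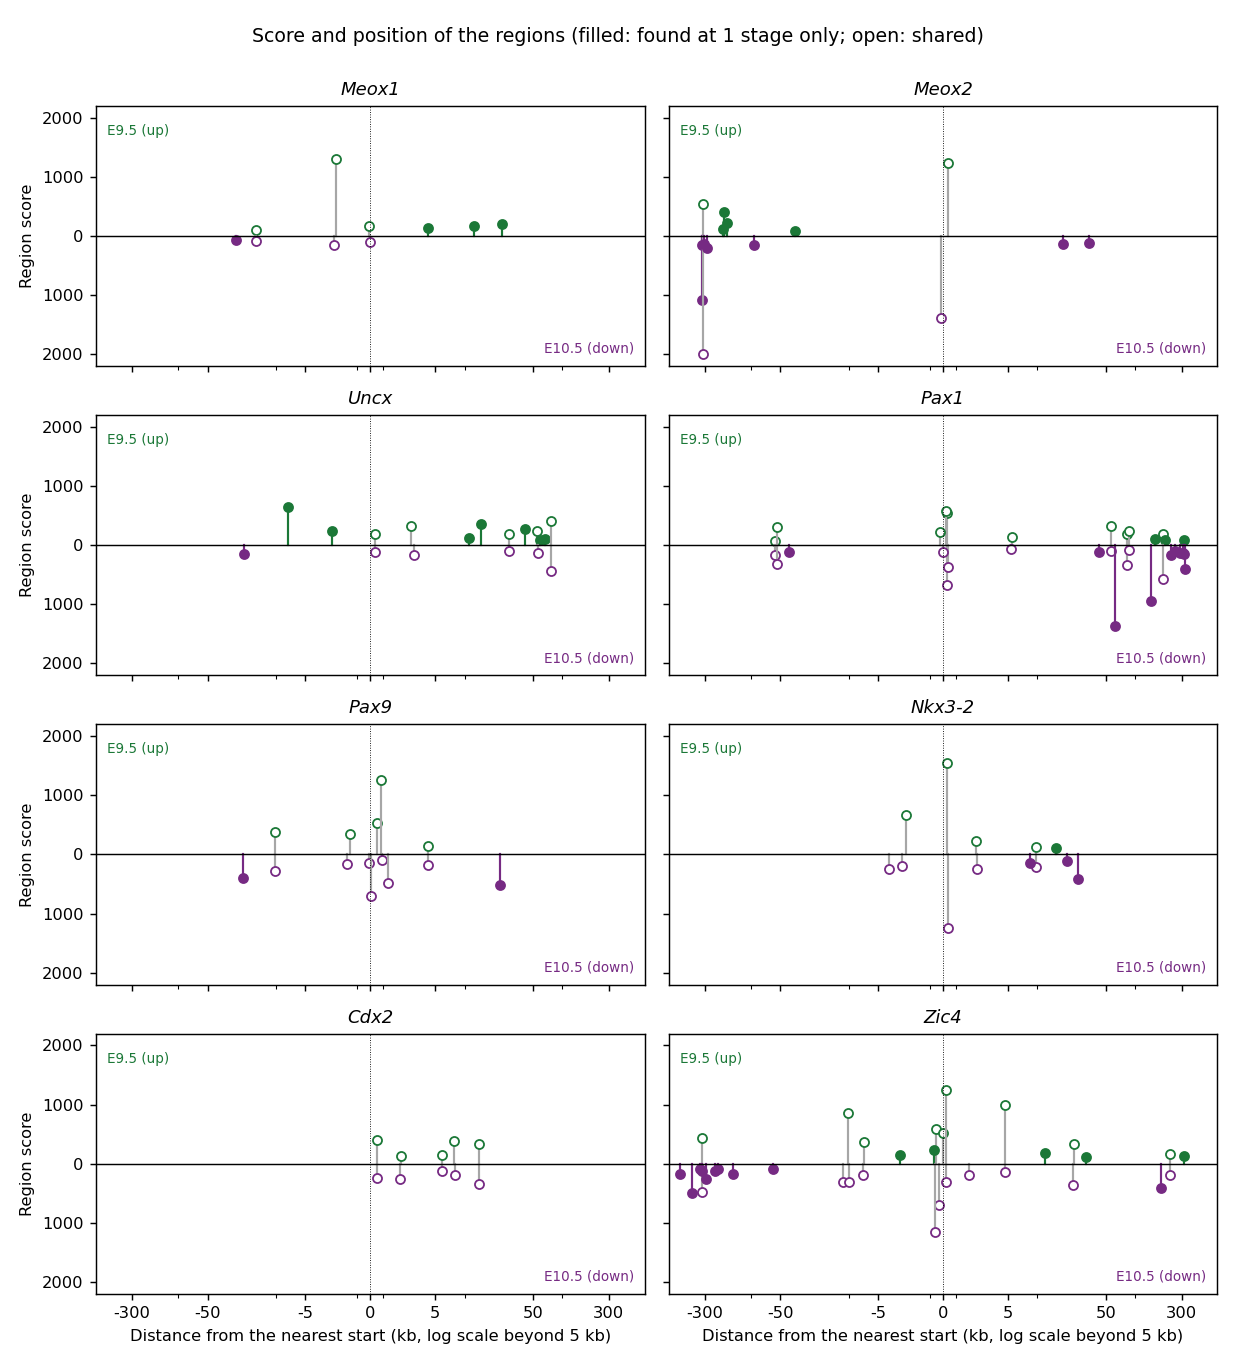
Score of each region (vertical axis, E9.5 upwards and E10.5 downwards) against its signed distance in kb from the nearest start of the gene (horizontal axis, logarithmic beyond 5 kb), for 8 genes; regions nearest Zic1 are not drawn under Zic4, and filled marks are stage-specific and open marks shared. E9.5-only regions of Uncx all lie within 100 kb, and the E10.5-only regions of Pax1 reach a score of 1367.

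Pax1 (chr2:147187661-147219031, plus strand) had 13 regions at E9.5 and 20 at E10.5. Of these, 3 were E9.5-only and 10 were E10.5-only. The 3 E9.5-only regions were weak, with scores of 102 at 161 kb, 79.8 at 203 kb and 91.8 at 321 kb downstream. The last of these ended 54 bp from an E10.5-only region with a score of 157, a gap far narrower than either region. The strongest E10.5-only region, 61.7 kb downstream, scored 1367 and lay at percentile 91.4. A further region 147 kb downstream scored 953, at percentile 85.1, and another 324 kb downstream scored 408. The other 7 scored between 101 and 165. No E9.5 region lay within 4.07 kb of the strongest region or within 13.1 kb of the region at 147 kb.

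The Pax1 promoter was open at both stages. The highest promoter-proximal score went from 569 at E9.5 to 666 at E10.5 (percentiles 68.9 and 78.0), and these were different regions among the 3 over the annotated starts. Shared distal regions of Pax1 moved in both directions. The region 56.5 kb downstream scored 330 at E9.5 and 101 at E10.5, and the region 86.8 kb downstream scored 247 and 89.6. In contrast, the region 192 kb downstream scored 182 and 566, a gain of 37.3 percentile points, and the region 56.5 kb upstream scored 77.4 and 159. The neighbouring protein-coding genes on either side were Nkx2-2 and Foxa2. Where noncoding genes and pseudogenes were also allowed as the nearest gene, 4 Pax1 regions were left at either stage and none of them was stage-specific.

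Pax9 (chr12:57792754-57813809, plus strand) had no E9.5-only region among 5, and 2 E10.5-only regions among 9. These scored 391 in intergenic sequence 21.9 kb upstream and 517 in an intron of the neighbouring gene Slc25a21, 22.9 kb downstream of the Pax9 start. The highest promoter-proximal score went from 1254 at E9.5 to 712 at E10.5 (percentiles 84.4 and 79.4.) A second promoter-proximal region, 2389 bp wide at E9.5 with a score of 536, was matched at E10.5 by a pair of narrower regions of 959 and 758 bp that scored 154 and 97.7. The larger number of Pax9 regions at E10.5 thus partly counts pieces of wide E9.5 regions.

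Nkx3-2 (chr5:42152404-42155735, minus strand) had the strongest promoter-proximal region of the 10 genes at E9.5, with a score of 1548 at percentile 88.5, and it scored 1253 at E10.5 at percentile 90.0. Of its distal regions, 1 of 4 was E9.5-only and 3 of 7 were E10.5-only. The E10.5-only regions all lay downstream in intergenic sequence. They scored 415 at 25.9 kb, 145 at 8.41 kb and 113 at 19.9 kb. The region at 8.41 kb was only 272 bp from an E9.5 region, and with a gap of under 1 kb counted as shared it was no longer E10.5-only. The E9.5-only region, 15.3 kb downstream, scored 116.

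Cdx2 (chr5:148112381-148118846, minus strand) had 5 regions in each list and none was stage-specific. Its highest promoter-proximal score went from 394 at E9.5 to 258 at E10.5 (percentiles 61.1 and 52.4.) The distal regions 13.9 kb and 7.75 kb downstream scored 325 and 375 at E9.5, and their E10.5 partners 338 and 190. Zic1 (chr9:91252896-91260648, minus strand) likewise had 2 regions in each list, all shared. Its highest promoter-proximal score went from 1509 at E9.5 to 897 at E10.5, or percentiles 88.0 and 84.0. With so few regions, a stage-specific share is poorly determined for these genes.

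Zic4 (chr9:91257251-91284186, plus strand) starts inside Zic1 and runs in the opposite direction. It had 15 regions at E9.5 and 21 at E10.5, of which 5 and 10 were stage-specific. The highest promoter-proximal score was 1509 at E9.5, in the region shared with Zic1, and 1147 at E10.5, in another region. A region 0.691 kb upstream of an internal start, over a Zic4 exon, scored 236 at E9.5 and had no E10.5 partner within 3.33 kb. It was the only promoter-proximal region of the 10 genes found at 1 stage.
Zic4, 0.691 kb upstream of an internal start, E9.5-only, chr9:91265051-91265251: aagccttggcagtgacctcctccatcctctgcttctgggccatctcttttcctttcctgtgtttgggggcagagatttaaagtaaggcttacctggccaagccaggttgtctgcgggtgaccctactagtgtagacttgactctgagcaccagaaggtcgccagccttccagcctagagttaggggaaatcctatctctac

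The other E9.5-only Zic4 regions scored between 116 and 175. Near the gene, the exonic region 4.79 kb downstream scored 984 at E9.5 and 146 at E10.5, a loss of 51.2 percentile points. The E10.5-only regions were spread far over the neighbouring sequence. The strongest lay 401 kb upstream with a score of 503, 184 kb downstream with 406 and 288 kb upstream with 260, and the other 7 scored between 86.5 and 175. Of the 10, 9 lay beyond 100 kb, and for 8 a gene that is not protein-coding, Gm5620, was nearer than Zic4. Within 100 kb the order of the stages was the reverse, with 4 E9.5-only regions and 1 E10.5-only region.

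Counted by gene, Meox1, Tcf15 and Uncx had more E9.5-only than E10.5-only regions, Meox2, Pax1, Pax9, Nkx3-2 and Zic4 had fewer, and Cdx2 and Zic1 had none of either. Among all 9328 genes with any stage-specific region, 45.0% had more E9.5-only and 47.3% more E10.5-only regions, against 3 and 5 of the 8 such genes here.

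The 10 genes were then compared by the position of their regions. At E9.5, 19 of their 70 regions were promoter-proximal (27.1%, 18.1 to 38.5), and at E10.5 it was 21 of 85 (24.7%, 16.8 to 34.8), against 38.3% and 32.9% in the whole lists. Of the promoter-proximal regions, 1 of 19 was E9.5-only, against 13.1% of the list, and 0 of 21 were E10.5-only, against 5.31%. Taking 3 counts as the most that a count of 0 leaves possible, 0 of 21 allows a share of up to 14.3%, and the Wilson upper bound was 15.5%. Among distal regions, 23 of 51 were E9.5-only (45.1%, 32.3 to 58.6, background 40.3%) and 34 of 64 were E10.5-only (53.1%, 41.1 to 64.8, background 49.6%).

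Near and far regions were counted apart. Within 100 kb of the start, 17 of 59 were E9.5-only (28.8%, 18.8 to 41.4, background 28.0%) and 14 of 61 were E10.5-only (23.0%, 14.2 to 34.9, background 27.7%). Beyond 100 kb, 7 of 11 were E9.5-only (63.6%, 35.4 to 84.8, background 42.6%) and 20 of 24 were E10.5-only (83.3%, 64.1 to 93.3, background 65.2%). All 4 backgrounds lay inside the intervals of the 10 genes. These 20 regions belonged to Zic4 (9), Pax1 (7) and Meox2 (4). The median distance of stage-specific regions was 27.8 kb at E9.5 and 202 kb at E10.5, and it was 20.1 kb and 57.5 kb for the stage-specific regions of all genes. A larger median distance at E10.5 was thus found genome-wide, but the rise was larger for the 10 genes. Of their E10.5-only regions, 58.8% lay beyond 100 kb, against 36.4% of all E10.5-only regions. This difference was not tested.

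Stage-specific regions of the 10 genes scored lower than shared ones of the same list, as they did in the lists as a whole. The median score was 136 for E9.5-only and 357 for shared E9.5 regions, where the whole list had 145 and 433. In the E10.5 list it was 153 and 243, where the whole list had 153 and 362. A score below 120 was found for 9 of the 24 E9.5-only regions (37.5%, whole list 32.8%) and 10 of the 34 E10.5-only regions (29.4%, whole list 30.7%). A region of the other list lay within 5 kb of 7 E9.5-only regions (29.2%, whole list 30.9%) and of 7 E10.5-only regions (20.6%, whole list 18.7%). Both shares were near those of all genes. The median score of promoter-proximal regions was 545 for the 10 genes against 899 for the whole list at E9.5, and 324 against 638 at E10.5. These medians are over regions, and Zic4, Pax1 and Pax9 had 5, 3 and 3 such regions at E9.5. The highest-scoring region of each gene was not compared with that of other genes. The promoter-proximal regions of the 10 genes were not narrower, the median widths being 1828 bp against 1562 bp at E9.5 and 1427 bp against 1376 bp at E10.5.

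Shared regions were compared by rank, because scores of lists of unknown depth cannot be set against each other directly. Each of the 46 shared E9.5 regions was paired with the strongest E10.5 region overlapping it. The partner ranked at least 25 percentile points lower for 8 of them (17.4%, background 9.58%) and at least 25 points higher for 5 (background 11.2%). No interval was computed for these shares, and their difference from the background was not tested. The median difference was -4.59 points, against 0.0873 over all shared regions. The 8 lower regions belonged to Meox1, Zic4, Pax1 (3 regions), Pax9 and Uncx (2 regions). The 5 higher ones belonged to Pax1 (2 regions), Nkx3-2, Cdx2 and Meox2. The Nkx3-2 value of 44.4 points arose by pairing: its E9.5 region of score 228 touched the strong promoter-proximal E10.5 region, while an E10.5 region of score 243 covered nearly the same position. With partners limited to a reciprocal overlap of at least 50%, 42 regions were left. Of these, 6 ranked at least 25 points lower and 4 at least 25 points higher.

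**Figure D3:**
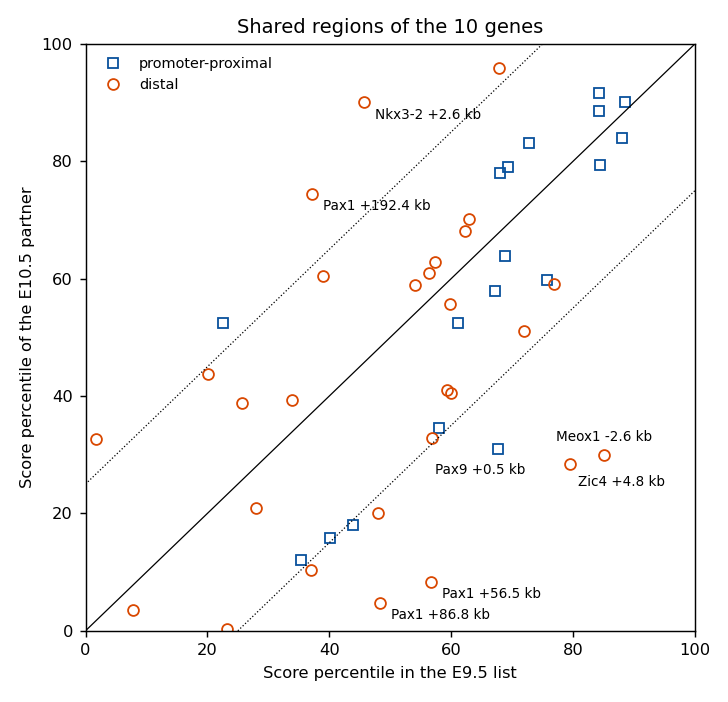
Score percentile of each of the 46 shared E9.5 regions of the 10 genes (horizontal axis) and of its E10.5 partner (vertical axis); squares are promoter-proximal, circles distal, the solid line marks equal rank and the dotted lines a shift of 25 points. The Meox1 region 2.63 kb upstream is the farthest below the line, at 85.1 and 29.9.

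Base composition was taken over 150 bp on either side of the centre of each region, which played no part in choosing the genes. Distal E9.5-only regions had a median GC content of 53.5% (range 37.2 to 69.1), and distal E10.5-only regions one of 42.0% (range 33.9 to 55.5). All distal stage-specific regions of the lists had medians of 50.8% and 44.2%, so the same order was found genome-wide. Distal shared regions of the 10 genes were closer to each other, with 53.0% and 51.0%. E9.5-only distal regions of Zic4 ranged from 49.2 to 53.5% and its E10.5-only regions from 33.9 to 46.5%, without overlap. These were 4 and 10 regions, of which 1 and 9 lay beyond 100 kb. Stage and distance from the gene thus cannot be told apart in the Zic4 values. Pax1 ranged from 48.8 to 52.2% and from 34.2 to 50.8%. Meox2 had the same median, 41.5%, at both stages. The part of GC content in the region counts was not tested.

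**Figure D4:**
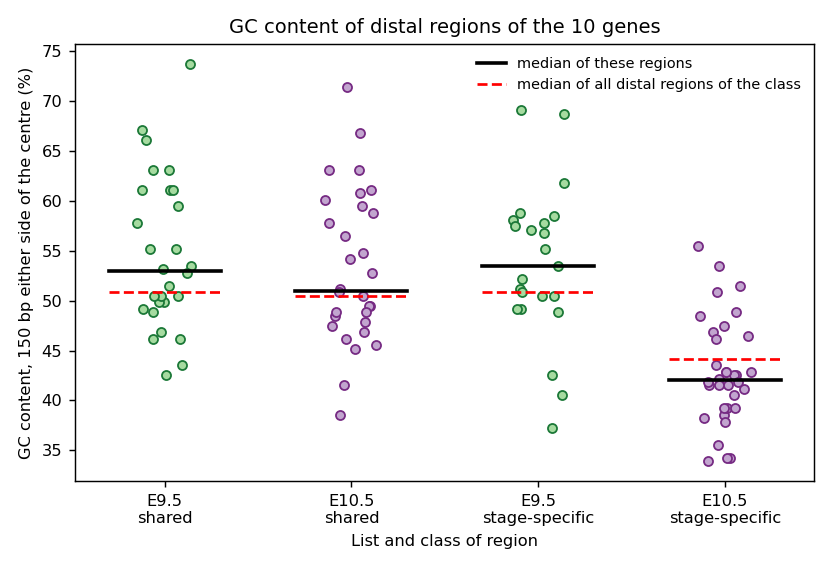
GC content in percent over 150 bp on either side of the centre (vertical axis) of the distal regions of the 10 genes, 1 point per region, by list and by whether the region was shared or stage-specific, with the median of the 10 genes and of all regions of each class. The E9.5-only regions have a median of 53.5% and the E10.5-only regions 42.0%.

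A set of 8 short motifs was searched on both strands of the same windows: TAATTA (homeodomain core), TTTATG (caudal), TAAGTG (Nkx3), CAGCAGG (Zic), GTCACGC (paired domain), CAGCTG (E-box), GTCTAGAC (the palindromic SMAD site) and TGACAG (Pknox and Meis). The last can share its outer bases with the E-box or the Zic motif. The E-box occurred in 10 of the 23 distal E9.5-only regions of the 10 genes (43.5%, against 28.7% of all distal E9.5-only regions) and in 3 of the 34 distal E10.5-only ones (8.82%, against 22.3%). The Zic motif occurred in 8 of 23 (34.8%, against 17.5%) and 5 of 34 (14.7%, against 11.3%). TTTATG, rich in A and T, occurred in 3 of 23 (all 14.5%) and in 14 of 34 (41.2%, all 27.9%).

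The other motifs were rarer or nearer the background. TAATTA was found in 0 of 23 and 6 of 34 regions, where all distal stage-specific regions had it in 6.50% and 16.1%. TAAGTG was found in 0 and 5, against 10.8% and 15.5%. TGACAG was found in 5 and 10, against 27.8% and 24.4%. GTCACGC was found in 1 and 0, against 1.29% and 0.591%, and the SMAD site in none, against 0.359% and 0.340%. These matches were not corrected for GC content, which differed between the sets of regions, and its part in them was not tested. No interval was computed for any motif share, and no difference from the background was tested. The regions also lay at few genes. Uncx held 7 of the 23 E9.5-only regions, and Pax1 and Zic4 held 10 each of the 34 E10.5-only ones.

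Other genes of the somite and its derivatives, taken from lists chosen by function, provided a comparison for the 10 genes. Of 10 somite segmentation genes, a promoter-proximal region was found for 9 in the E9.5 list and for 6 in the E10.5 list. Among all protein-coding genes, 65.1% (E9.5) and 62.5% (E10.5) had such a region. The E10.5 count of the segmentation genes was thus near the share of all genes. Dll3, Mesp1 and Ripply1 had one at E9.5 only, and Msgn1 at neither stage, whereas each of the 10 genes followed here had one at both. Of 29 E9.5 regions of the segmentation genes, 12 were E9.5-only (41.4%, 25.5 to 59.3), and of 19 E10.5 regions 3 were E10.5-only (15.8%, 5.52 to 37.6). Lfng, a Notch modulator of the segmentation clock, had 3 more E9.5-only than E10.5-only regions, and Ripply2 had 1 fewer.

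The 8 dermomyotome and myotome genes had 20 of 54 E9.5-only regions (37.0%, 25.4 to 50.4) and 7 of 42 E10.5-only regions (16.7%, 8.32 to 30.6). Pax7, a factor of muscle progenitors and dorsal neural tube, had a promoter-proximal region at E9.5 only, and 8 E9.5-only regions but 0 E10.5-only ones. Myog, a late myogenic factor, had a promoter-proximal region at neither stage. Sim1 had 1 E9.5-only and 3 E10.5-only regions. Of 5 further genes of sclerotome, tendon and cartilage, all had a promoter-proximal region at both stages, and they had 27 E9.5-only regions of 59 (45.8%, 33.7 to 58.3) and 11 E10.5-only regions of 44 (interval 14.6 to 39.4%). Sox9, which drives cartilage formation and is also active in the limb bud, had 15 and 4, and Foxc1 had 2 and 6. Sox9 alone thus held 15 of the 27 E9.5-only regions, and the share without it was not computed. In each of these lists the E9.5-only share was above the E10.5-only one. The 10 genes followed here, with 34.3% and 40.0%, had the order of the whole lists, with 29.9% and 35.0%. Within 100 kb of the start this order was reversed. There the 10 genes had 28.8% and 23.0%, where the whole lists had 28.0% and 27.7%. Shares of the other lists were not computed under that limit. No difference between the lists was tested.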

How the data were processed

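ATAC-seq libraries of 4 forelimb samples, 2 at each stage, had been aligned to mm9 with Bowtie 1.1.0 and called with MACS 1.4, according to the submitters' processing notes. The study's methods state that both replicates of a stage were then combined with MSPC, which retains regions by their joint evidence. The authors deposited 1 list per stage with positions and a score per region. Read depth is therefore unknown, and the precision of single scores cannot be stated. Values of at least 3100 were treated as the upper limit of the score, which no region of the 10 genes reached.

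Regions were assigned with GENCODE vM1 on NCBIM37, the same assembly as mm9. Python 3.11.15, numpy 2.4.6, pandas 2.3.3 and scipy 1.17.1 were used, figures were drawn with matplotlib 3.10.9, and the overlap and nearest-start steps were tested on simulated data. Genes and lists, including the 10 genes, were chosen with earlier results of these data known. By rule, all 10 genes were named with their highest-scoring promoter-proximal and stage-specific regions, and of other lists the genes without a promoter-proximal region and those with the largest difference, of which 1 is not reported here. The motifs, the shift of 25 percentile points and the reciprocal partner were chosen after the lists were seen. Alternatives are given in the closing section.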

Additional observations from a re-analysis of the deposited data

How the results depend on the processing

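No paired analysis was possible because the deposited lists do not separate the replicates of a stage, and leaving out a replicate was not run for the same reason. Of 134 alternative values, 100 stayed close to the reported ones, 33 moved and 1 reversed: within 100 kb of the start, Zic4 had 3 more E9.5-only than E10.5-only regions. Under that limit the E9.5-only share was 28.8% and the E10.5-only share 23.0%, so their order turned. With a reciprocal overlap of at least 50% these shares were 40.0% and 50.6%, and both counted as close. With the higher-scoring 50% of each list, 33 E9.5 and 36 E10.5 regions were left by construction, 42.4% and 36.1% of them promoter-proximal, and 3 genes had more E10.5-only regions. The Meox2 difference was then 0, from -3. With that part of a list set against the whole other list, 12.1% and 27.8% were stage-specific, and 1 gene, Uncx, had more E9.5-only regions, the Meox1 and Meox2 differences being 0. With genes of any type as nearest gene, 51 of the 70 E9.5 regions and 52 of the 85 E10.5 regions were left. The differences per gene and the summed stage-specific shares were not recomputed under that setting. All stage-specific regions of Pax1 (3 and 10) and Meox1 (3 and 1) were then nearer another gene. So were 1 of 5 E9.5-only and 8 of 10 E10.5-only regions of Zic4, but no Uncx region. A promoter limit of 5 kb gave a promoter-proximal share of 40.0% at E9.5. Promoter-proximal regions alone had median percentiles of 68.1 and 59.7. Chosen after seeing the data, a rank shift of 20 points gave 14 lower and 7 higher regions, and 30 points gave 5 lower and 3 higher. Leaving out 1 gene at a time, the E9.5-only share ran from 29.3% to 36.9% and the E10.5-only share from 35.5% to 42.5%. Where the construction does not show it, the cause was not tested.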

Other observations

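Genes of the neural tube, which adjoins the somites in the trunk, had 34 of 88 E9.5-only regions (38.6%, 95% Wilson interval 29.1 to 49.1) and 11 of 69 E10.5-only regions (15.9%, 9.14 to 26.3). The whole E9.5 list had 29.9%, inside the first interval, and the whole E10.5 list 35.0%, above the second. Of 12 neural tube genes found in the annotation, all had a promoter-proximal region at E9.5, and 11 still did at E10.5. Among all protein-coding genes, 65.1% and 62.5% had one. The exception at E10.5 was Dbx1, a gene of intermediate neural progenitors, whose highest promoter-proximal score at E9.5 was 318. Sox2, a factor of neural progenitors, had 12 E9.5-only and 3 E10.5-only regions.

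Of 4 tail bud genes, T and Cdx1 had a promoter-proximal region at E9.5 only, with scores of 183 and 713. Cdx4 and Wnt3a had none at either stage, and Cdx4 had no region of any kind in either list. Cdx2, in contrast, had a promoter-proximal region at both stages. The 13 limb mesenchyme genes had 22 of 98 E9.5-only regions (22.4%, 15.3 to 31.7) and 49 of 128 E10.5-only regions (38.3%, 30.3 to 46.9), and the shares of the whole lists, 29.9% and 35.0%, lay inside these intervals. Fgf10, which encodes the growth signal of the limb mesenchyme, had 2 and 15, and Meis2, a gene of the proximal limb, had 6 and 2. These differences between lists were not tested.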
